A study of Mus musculus with 6 samples.

Results

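The genes described here encode the coat of caveolae, the flask-shaped pits of the plasma membrane: the caveolins Cav1 and Cav2, the cavins Cavin1, Cavin2 and Cavin3, and the neck ATPase Ehd2. They were taken by their GENCODE M21 symbol, 6 of 23492 genes with reads, together with all 19 of their annotated transcripts. All 6 genes and 8 of the 19 transcripts passed the filter on low counts. The genes were chosen by their known role and with their measured reads in cold and control mice already known, so their own differences are a description. How many of them passed the tests run over all genes or transcripts is printed beside the share of all features that did, and supports nothing about them.

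The epididymal fat pad, a white depot, was profiled by Oxford Nanopore direct cDNA sequencing of poly-A RNA, which involves no PCR. All mice were wild type C57BL/6N males of 20 weeks. The ctrl group held 3 mice (5, 6 and 10) and the cold group 3 mice (7, 12 and 16), which spent 24 h at 4 °C in single cages. General housing was at 22 to 24 °C, and whether controls also lived alone is not given in the sources used here. The series title speaks of brown fat, but the label of each library gives the epididymal depot.

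Caveolae are unusually dense in fat cells, and endothelial and smooth muscle cells carry them too. Caveolin 1 inserts into the inner leaflet as a hairpin, binds cholesterol and oligomerizes, with caveolin 2 as its partner. Cavin 1 is needed to shape the pit, the other cavins join it in the coat, and EHD2 forms rings at the neck that hold the pit at the surface. Loss of caveolin 1 or cavin 1 is known to cause lipodystrophy in mice and people.

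Total reads were between 726283 and 1341592 per mouse, so 1 read is worth 0.747 to 1.38 CPM (the usual depth-scaled unit, here scaled to the sum of all gene reads) and a count of 0 allows up to 2.24 to 4.14 CPM. Cold 16 stood apart in the kinds of transcript read: 4.38% of its reads lay on retained-intron transcripts, against 3.25% to 3.63% in the other 5 libraries. Mature adipocyte markers were abundant in every library, with a summed level over 20 genes of 66350 to 73109 CPM in ctrl and 66456 to 71075 CPM in cold. The muscle members of the families were near absent. Cav3, the caveolin of striated muscle, had 0 reads in all libraries, and Cavin4, the muscle cavin, had 5 reads in all.

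Cav1 is read from a pair of start sites, and the sequences at both are shown because its reads divided almost evenly between the transcripts that begin there. Cav1 (ENSMUSG00000007655.16) spans chr6:17306335-17341452 on the plus strand of GRCm38. Transcript Cav1-201 starts at its first base, has 3 exons and encodes 178 codons, the alpha isoform. Transcript Cav1-202 starts 1305 bases further on, inside the first intron of Cav1-201, has 2 exons and encodes 147 codons, the beta isoform. Its start codon is codon 32 of Cav1-201, so it lacks the 31 codons before it, which hold the tyrosine that Src family kinases phosphorylate. The start of each reading frame follows, 5′ to 3′ with the ATG in capitals, from the GENCODE M21 transcript of Cav1-201: its coding bases in exon 1, at chr6:17306450-17306479, and the bases from the internal start, at chr6:17307944-17307973.
Cav1-201 reading frame: ATGtctgggggcaaatacgtagactccgag
Cav1-202 reading frame: ATGgcagacgaggtgactgagaagcaagtg

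The 250 bases before each start site, and before that of Cav2, are from RefSeq's table for GRCm38.p6, plus strand. The windows are chr6:17306085-17306334 (Cav1-201), chr6:17307390-17307639 (Cav1-202) and chr6:17280935-17281184 (Cav2). Capitals mark matches to any of the 5 motifs searched on both strands. These were the GC box (GGGCGG), the CCAAT box (letters CCAAT), the TATA box (TATAAA), the E-box (CACGTG) and the cAMP response element (TGACGTCA), of which none contains another.
Upstream of Cav1-201: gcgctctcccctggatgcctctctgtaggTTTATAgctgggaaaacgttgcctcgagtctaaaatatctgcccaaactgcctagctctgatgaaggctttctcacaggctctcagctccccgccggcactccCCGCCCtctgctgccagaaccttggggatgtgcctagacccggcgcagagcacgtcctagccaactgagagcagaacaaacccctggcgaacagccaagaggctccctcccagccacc
Upstream of Cav1-202: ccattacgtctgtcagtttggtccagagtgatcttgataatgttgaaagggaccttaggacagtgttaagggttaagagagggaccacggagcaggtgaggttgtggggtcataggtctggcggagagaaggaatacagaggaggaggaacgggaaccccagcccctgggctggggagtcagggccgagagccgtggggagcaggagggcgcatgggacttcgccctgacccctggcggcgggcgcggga
Upstream of Cav2: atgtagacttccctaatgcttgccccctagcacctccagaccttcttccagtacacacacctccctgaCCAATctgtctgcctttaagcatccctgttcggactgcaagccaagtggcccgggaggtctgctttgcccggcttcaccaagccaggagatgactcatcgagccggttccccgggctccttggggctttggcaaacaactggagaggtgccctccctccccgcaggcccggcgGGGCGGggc

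The window before Cav1-201 holds 1 GC box, 118 bases before the start, and 1 TATA box match, 221 bases before it. The window before Cav1-202 holds a match to none of the 5. Cav2 has 1 GC box 9 bases before its start and 1 CCAAT box 182 bases before it. Over all 32851 windows of this length in the table, 32.7% hold the GC box, 33.9% the CCAAT box, 12.4% the TATA box, 6.02% the E-box and 1.55% the cAMP response element. The table had entries for 5 of the 6 genes, all but Cavin3. The windows of Cavin1, Ehd2 and Cavin2, not printed, hold 1 CCAAT box each, and those of Cavin1 and Ehd2 also 1 GC box. RefSeq's start sites for Cavin1 lie downstream of the GENCODE start, so its windows lie inside exon 1 of Cavin1-201 (chr11:100969990-100970887). The Ehd2 window overlaps the first exon of Ehd2-201 in part. The GC content was 59.6% before Cav1-201, 60.8% before Cav1-202, 62% before Cav2 and 40.4% before Cavin2, against a median of 52.4% over all windows. These matches are letters in a window and carry no measurement of binding.

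Cav1, Cav2 and Cavin1 were lower in all 3 cold mice than in any control mouse, while Cavin2, Cavin3 and Ehd2 overlapped between the groups. The mean level in the cold was 0.718 of the control mean for Cav1, 0.794 for Cav2 and 0.742 for Cavin1, and 1.08, 0.976 and 0.976 for Cavin2, Cavin3 and Ehd2. Groups did not overlap with cold lower in 3 of the 6 genes and with cold higher in 0. Over all 9772 genes tested this held for 7.7% and 5.96%, or 13.7% in either direction. By edgeR's quasi-likelihood test, 0 of the 6 passed an adjusted p of 0.05, which 0.655% of all genes did, 0.113% lower and 0.542% higher in the cold. At an unadjusted p under 0.05 the edgeR count was 3 of 6, all lower, where 8.43% of all genes lay in either direction and 3.71% lower. DESeq2 and limma-voom also gave 0 adjusted and 3 unadjusted. Cav1 passed in 2 of 13 other settings, without cold 7 and with no filter on low counts. In these settings 199 and 371 genes were called over the whole table, against 64 in the main fit. Because the genes were chosen with this contrast in view, nothing is read from these counts. In bulk tissue, fewer cells of a type and less RNA per cell cannot be told apart.

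**Figure D1:**
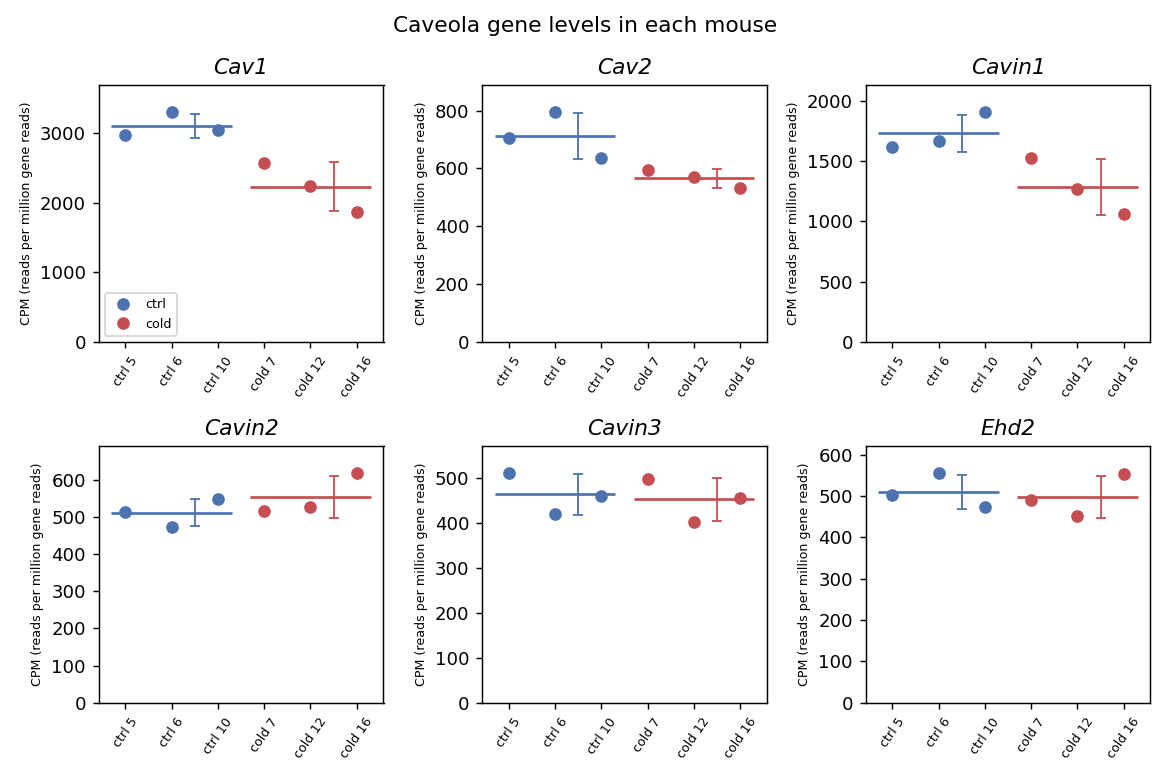
Level of each caveola gene (y axis, CPM from 0, own scale per panel) in the 3 ctrl mice (blue) and the 3 cold mice (red); points are mice, lines group means and bars 1 SD. In Cav1, Cav2 and Cavin1 every red point lies below every blue one, and in the other 3 panels the groups overlap.

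Cav1, the hairpin protein without which caveolae of non-muscle cells do not form, had 2973, 3297 and 3040 CPM in ctrl 5, 6 and 10. It had 2574, 2238 and 1871 CPM in cold 7, 12 and 16. The nearest values across the groups were cold 7 and ctrl 5, and cold 16 was lowest. The means were 3104 ± 171 CPM in ctrl and 2228 ± 352 CPM in cold (SD, n = 3), and the fitted log2 fold change, cold minus ctrl, was -0.45 ± 0.14 (SE).

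Cav2, which needs caveolin 1 to reach the cell surface, lies next to it (ENSMUSG00000000058.6, chr6:17281185-17289115), with 17219 bases between the end of Cav2 and the start of Cav1. It had 706, 794 and 637 CPM in ctrl 5, 6 and 10, and 596, 570 and 531 CPM in cold 7, 12 and 16. The order of the cold mice was that of Cav1, with cold 7 highest and cold 16 lowest. The means were 712 ± 78.4 and 566 ± 32.4 CPM (SD, n = 3), a log2 fold change of -0.31 ± 0.13 (SE).

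Cavin1, the coat protein that binds the caveolin scaffold from the cytosol, lies at chr11:100956733-100970887 on the minus strand (ENSMUSG00000004044.9). It had 1618, 1665 and 1901 CPM in ctrl 5, 6 and 10, and 1521, 1266 and 1062 CPM in cold 7, 12 and 16. Cold 7 again came closest to the controls and cold 16 was again lowest. The means were 1728 ± 152 and 1283 ± 230 CPM (SD, n = 3), a log2 fold change of -0.40 ± 0.14 (SE). The control mouse with the most Cavin1, ctrl 10, was not the one with the most Cav1 and Cav2, ctrl 6.

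The other coat genes did not follow this order. Cavin2, which helps recruit cavin 1 and bends membranes (ENSMUSG00000045954.7, chr1:51289126-51302960), had 512, 473 and 547 CPM in ctrl 5, 6 and 10, and 516, 525 and 617 CPM in cold 7, 12 and 16. Cold 16, lowest for the 3 genes above, was highest here. The means were 511 ± 36.9 and 553 ± 56 CPM (SD, n = 3), a log2 fold change of 0.14 ± 0.13 (SE).

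Cavin3, a cavin that binds protein kinase C delta (ENSMUSG00000037060.3, chr7:105480083-105482300, minus strand), had 511, 420 and 461 CPM in ctrl and 498, 403 and 456 CPM in cold, in the same order of mice. Both groups covered nearly the same range, with means of 464 ± 45.7 and 452 ± 47.3 CPM (SD, n = 3) and a log2 fold change of -0.01 ± 0.13 (SE). Ehd2, the ATPase of the caveolar neck (ENSMUSG00000074364.6, chr7:15946958-15967567, minus strand), had 502, 555 and 474 CPM in ctrl and 491, 451 and 553 CPM in cold. Its highest values, in ctrl 6 and cold 16, came from different groups. The means were 511 ± 41.4 and 498 ± 51.4 CPM (SD, n = 3), a log2 fold change of -0.01 ± 0.13 (SE).

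The median log2 fold change was -0.16 over the 6 caveola genes and 0.01 over all 9772 genes tested. All 6 genes together took 0.703 ± 0.0193% of the gene reads in ctrl and 0.558 ± 0.0563% in cold (SD, n = 3). Cav1, Cav2 and Cavin1 accounted for 0.554 ± 0.0231% and 0.408 ± 0.0613%, and Cavin2, Cavin3 and Ehd2 for 0.149 ± 0.00384% and 0.150 ± 0.0123%. The difference in the sum therefore lay in the first 3 genes. The 6 genes were divided by whether they separated the groups in these same data, so this is a description only. The 2 files of a mouse, counted apart, gave Cav1 levels of 3017 and 2918 CPM in ctrl 5 and of 1881 and 1859 CPM in cold 16. These were closer to each other than to those of the other group. Cav1 and Cav2 did not overlap between the groups in either file. Cavin1 overlapped in the X1 files, with cold 7 at 1600 CPM and ctrl 5 at 1556 CPM. In the X2 files cold 7 had 1427 CPM of Cavin1, and the lowest control, ctrl 6, had 1656 CPM.

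Cold 16, the library with the most retained-intron reads, had the lowest Cav1, Cav2 and Cavin1. Without it the log2 fold changes were -0.33 for Cav1, -0.26 for Cav2 and -0.28 for Cavin1. Without cold 7 they were -0.59, -0.36 and -0.56. In all 13 other settings of filter, scaling, tool, file or mice, the 3 genes remained lower in the cold, and Cavin2 was above 0 in all 13.

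Levels of different genes were set in order per length, as CPM per kilobase of the annotated transcripts read. In ctrl, Cav1 stood first at 1180 ± 64.9 CPM per kilobase (SD, n = 3), then Cavin1 at 496 ± 43.5, Cavin3 at 279 ± 27.5, Cav2 at 262 ± 28.9, Cavin2 at 167 ± 12.1 and Ehd2 at 99.8 ± 8.09. Among neighbours in this order only Cavin3 and Cav2 overlapped in ctrl, and in cold only Cav2 and Cavin2. Cav1, Cavin1 and Ehd2 kept the first, second and last place in each of the 6 mice. A full-length read stands for a molecule whatever its length, so the division by length can place long mRNAs such as Ehd2 too low. Without this division Cavin3 had the lowest ctrl mean, at 464 CPM, and Ehd2 and Cavin2 had 511 CPM each.

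Ratios of reads within a mouse do not depend on how libraries are scaled. Per Cavin1 read there were 1.84, 1.98 and 1.60 Cav1 reads in ctrl 5, 6 and 10, and 1.69, 1.77 and 1.76 in cold 7, 12 and 16. The groups overlapped, with means of 1.81 ± 0.192 and 1.74 ± 0.042 (SD, n = 3). Cav1 reads per Cav2 read also overlapped, at 4.38 ± 0.341 in ctrl and 3.92 ± 0.4 in cold.

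Of the 9 ratios of Cav1, Cav2 or Cavin1 to Cavin2, Cavin3 or Ehd2, 7 were lower in every cold mouse than in any control, and 2 overlapped. The genes were divided by whether they separated the groups in these same data, and the ratios share genes. This count is therefore a description, with no share over other gene pairs beside it, and supports nothing further. Cavin1 reads per Cavin2 read were 3.16, 3.52 and 3.47 in ctrl 5, 6 and 10, and 2.95, 2.41 and 1.72 in cold 7, 12 and 16. Cav1 reads per Ehd2 read were 5.92, 5.94 and 6.42 in ctrl, and 5.24, 4.96 and 3.38 in cold. In both ratios every cold mouse lay below every control, with cold 16 farthest away. Cavin1 reads per Cavin3 read were 3.75 ± 0.514 in ctrl and 2.84 ± 0.446 in cold (SD, n = 3), with cold 12 at 3.14 just under ctrl 5 at 3.17. The ratios that overlapped were Cavin1 reads per Ehd2 read, at 3.22, 3.00 and 4.01 in ctrl 5, 6 and 10 and 3.10, 2.81 and 1.92 in cold 7, 12 and 16, and Cav2 reads per Cavin3 read, at 1.55 ± 0.294 in ctrl and 1.26 ± 0.135 in cold.

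**Figure D2:**
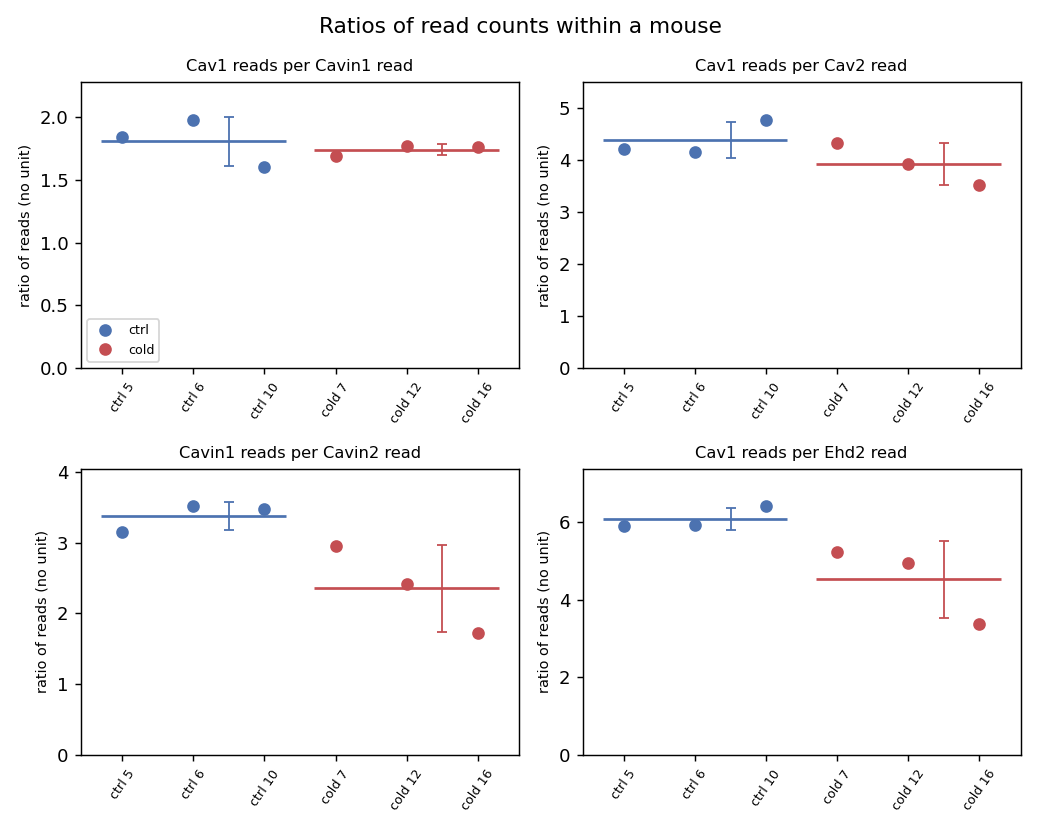
Ratio of the reads of one caveola gene to those of another (y axis, no unit, from 0) in the 3 ctrl mice (blue) and the 3 cold mice (red), with group means as lines and 1 SD as bars. The groups overlap in Cav1 per Cavin1 and Cav1 per Cav2, and every cold mouse lies below every control in Cavin1 per Cavin2 and Cav1 per Ehd2, which are 2 of the 7 ratios that separated.

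At the transcript level, 0 of the 8 caveola transcripts tested passed an adjusted p of 0.05 by edgeR, which 0.381% of 12325 transcripts did, 0.0568% lower and 0.325% higher in the cold. At an unadjusted p under 0.05 there were 4, all lower, where 6.87% of all transcripts lay in either direction and 2.92% lower. DESeq2 and limma-voom also gave 0 adjusted and 4 unadjusted. Groups did not overlap, with cold lower, in Cav1-201, Cav1-202, Cav2-201 and Cavin1-201 of the 8 and with cold higher in 0, against 6.99% and 5.57% of all transcripts, or 12.6% in either direction. CPM values of transcripts are relative to all reads of a library.

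Cav1-201, the alpha transcript shown above with its own first exon, had 1398, 1566 and 1397 CPM in ctrl 5, 6 and 10, and 1173, 1082 and 863 CPM in cold 7, 12 and 16. Cav1-202, the beta transcript, had 1551, 1710 and 1626 CPM in ctrl, and 1389, 1144 and 987 CPM in cold. Both were lower in every cold mouse than in any control. Their log2 fold changes were -0.45 ± 0.15 and -0.44 ± 0.15 (SE), less than 1 SE apart.

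Of the reads on these 2 transcripts, Cav1-201 took 47.4%, 47.8% and 46.2% in ctrl 5, 6 and 10, and 45.8%, 48.6% and 46.7% in cold 7, 12 and 16. The 95% Wilson interval, which covers counting error only, was 45.5% to 49.3% in ctrl 5 and 44.1% to 49.2% in cold 16. The share was 47.1 ± 0.829% in ctrl and 47.0 ± 1.45% in cold (SD, n = 3), and the difference of -0.123 percentage points was within the spread of either group. Cav1 was the only caveola gene with more than 1 tested transcript. In the usage test of edgeR, which asks whether transcripts of a gene differ unequally, Cav1 did not pass, and 0% of 2624 genes did (0 adjusted, 25 at an unadjusted p under 0.05).

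The 2 transcripts share 2377 bases, 94.3% of Cav1-201 and 86.6% of Cav1-202. Cav1-201 alone has 145 bases, all at its 5′ end, and Cav1-202 alone has 241 at the 5′ end and 128 at the 3′ end. A read that stops short of the 5′ end could be given to either, or be placed by whether it holds the 128 bases at the 3′ end. How the counting tool split such reads is not given in the sources used here. The near-even shares were not tested against such a split, so they need not be the shares of the 2 start sites.

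**Figure D3:**
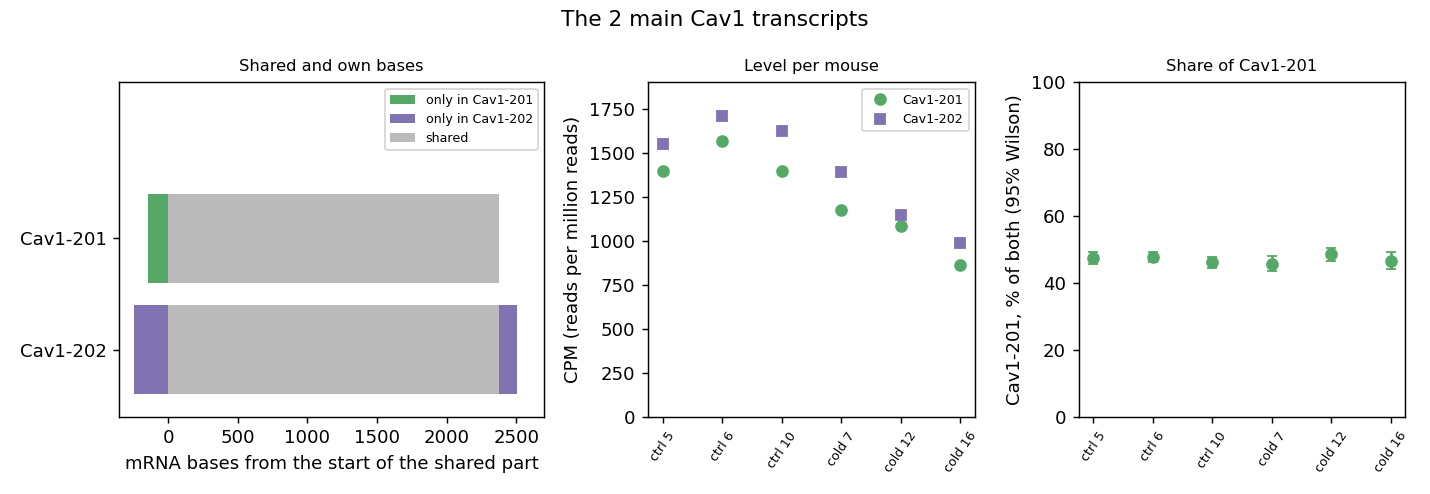
Left, mRNA bases of Cav1-201 and Cav1-202 drawn to scale from the start of their shared part (grey 2377 bases, coloured parts own bases). Middle, level of each in CPM per mouse; right, percent of the reads on both that fell on Cav1-201, with 95% Wilson intervals. Both levels are lower in the 3 cold mice and the share stays between 45.8% and 48.6%.

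The remaining transcripts were minor. Cav1-205, which has 4 exons and the start codon of Cav1-201, had 59 reads over the 6 mice, 0.354% of Cav1 reads, with 11.3 ± 3.49 CPM in ctrl and 8.40 ± 4.29 CPM in cold (SD, n = 3). Cav1-207, a non-coding transcript, had 12 reads, 10 of them in ctrl mice, and the other 6 Cav1 transcripts had 1 to 5 reads each. Cav2-201 took 99.0% of Cav2 reads, and Cav2-202, whose coding part of 113 codons is shorter than the 162 of Cav2-201, had 37 reads. Cavin1-201 took 99.7% of Cavin1 reads, and the non-coding Cavin1-202 had 24. Cavin2 and Cavin3 have 1 annotated transcript each, and Ehd2-201 took all but 1 read of Ehd2. Annotated genes that overlap the caveola genes held 8 reads or fewer. Whether reads of those genes were counted to the caveola genes was not tested.

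The proteins that work with the caveolar coat showed no member past the threshold. Of 17 tested partner genes 7 were higher and 10 lower in the cold, and 0 passed by edgeR (0.655% of all genes did), with 0 at an unadjusted p under 0.05 (8.43% of all genes). DESeq2 gave 0 and 0, and limma-voom 0 adjusted and 2 unadjusted. The median log2 fold change was -0.09, against 0.01 over all genes. The summed level was 1327 to 1373 CPM in ctrl and 1222 to 1298 CPM in cold, without overlap. Rhoa has the most reads of the list, and its means, given below, differ by about as much as the sums. The sums therefore say little about the other partners. The membrane-bending adaptor Pacsin2, which shapes caveolae, had 79.2 ± 6.5 CPM in ctrl and 63.4 ± 7.28 CPM in cold (SD, n = 3), without overlap. Its relative Pacsin3 had 38.2 ± 7.74 and 27.7 ± 4.42 CPM, with overlap. Nos3, the endothelial nitric oxide synthase that caveolin 1 binds, had 34.4 ± 4.85 and 45.3 ± 3.68 CPM, and Rhoa, a GTPase of the actin skeleton, 439 ± 14.6 and 349 ± 75.1 CPM. Nos3 was higher and Rhoa lower in each cold mouse than in any control.

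Among 9 tested genes of flotillins and other raft scaffolds 0 passed by edgeR, with 1 lower at an unadjusted p under 0.05 by each of edgeR, DESeq2 and limma-voom and 0 adjusted by any of these. Over all genes 8.43% lay there and 0.655% passed by edgeR, and 1 of 9 is near that share. Their median log2 fold change was -0.16, with 2 higher and 7 lower, and their summed level was 1475 to 1556 CPM in ctrl and 1267 to 1380 CPM in cold. Myadm, a membrane protein of lipid rafts, had 340 ± 45.8 CPM in ctrl and 252 ± 23.1 CPM in cold (SD, n = 3), without overlap. The tetraspanin Cd81 had 406 ± 15.6 and 348 ± 46.6 CPM, the complement regulator Cd59a 421 ± 14 and 371 ± 42.1 CPM, and Flot2, which builds flotillin domains, 71.5 ± 5.8 and 61.1 ± 4.99 CPM.

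Receptors, transporters and signalling proteins of the fat cell membrane that are linked to caveolae had 0 of 20 tested genes past the threshold by edgeR. With each of edgeR, DESeq2 and limma-voom 1 was higher at an unadjusted p under 0.05 and 0 adjusted. This share, 1 of 20, lies below the 8.43% of all genes by edgeR, and 0.655% of all genes passed the adjusted threshold. That gene, the fatty acid transporter Slc27a1, had 276 ± 26.2 CPM in ctrl and 389 ± 43 CPM in cold (SD, n = 3), without overlap (edgeR adjusted p = 0.0997), and passed without cold 16 (edgeR adjusted p = 0.0431). The adaptor Crk had 66.7 ± 2.35 and 78.3 ± 1.45 CPM, the exchange factor Rapgef1 65.6 ± 13.4 and 55.8 ± 19.5 CPM, and the receptor Tgfbr1 16.0 ± 4.16 and 11.6 ± 1.66 CPM. The list's median log2 fold change was -0.03, with 8 higher and 12 lower.

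Genes of membrane cholesterol, the lipid on which caveolae depend, had 0 of 16 past the threshold by edgeR, which 0.655% of all genes were. At an unadjusted p under 0.05 there were 3 lower and 1 higher by edgeR and by limma-voom and 1 and 1 by DESeq2, with 0 adjusted by any of these. Of all genes, 8.43% lay there by edgeR, of which the lower ones were 3.71% of all genes. Gramd1b, which carries cholesterol from the plasma membrane to the endoplasmic reticulum, had 7.6 ± 2 CPM in ctrl and 17.9 ± 4.7 CPM in cold (SD, n = 3). Insig1, a brake on sterol production, had 165 ± 34.2 and 116 ± 3.34 CPM. The lipoprotein receptor Scarb1 had 141 ± 21.5 and 108 ± 7.43 CPM, and the lipid carrier Osbpl8 42.9 ± 3.29 and 31.2 ± 1.7 CPM. Gramd1b was higher, and Insig1 and Osbpl8 lower, in each cold mouse than in any control.

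Regulators of fat cell gene expression had 0 of 17 past the threshold and 0 at an unadjusted p under 0.05 by edgeR, DESeq2 and limma-voom (0.655% and 8.43% of all genes by edgeR), with 10 higher, 7 lower and a median log2 fold change of 0.06. Klf4 had 78.7 ± 22.6 and 57.3 ± 5.3 CPM, Cebpd 43.7 ± 5.58 and 32.6 ± 4.39 CPM, Ebf1 144 ± 17.9 and 121 ± 7.9 CPM, and Klf2 60.0 ± 17.3 and 50.3 ± 11.7 CPM (SD, n = 3). These factors control differentiation in fat and vessel cells.

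Markers of the cell types that could hold caveolae overlapped between the groups in sum. The summed level of 20 endothelial markers was 1894 to 1934 CPM in ctrl and 1630 to 2012 CPM in cold, 0 of 20 past the threshold by edgeR, with 1 at an unadjusted p under 0.05 by edgeR and limma-voom (8.43% of all genes by edgeR) and 0 by DESeq2. Pecam1, an adhesion molecule of endothelium, had 106 ± 8.83 and 113 ± 13.8 CPM (SD, n = 3), Cdh5, its cadherin, 248 ± 36.7 and 207 ± 37.2 CPM, and the receptors Kdr 67.1 ± 10.6 and 71.1 ± 10.1 CPM and Tek 27.2 ± 4.36 and 29.7 ± 6.23 CPM. Pericyte and smooth muscle markers summed to 1036 to 1113 and 883 to 1118 CPM over 14 genes, 0 of 13 past the threshold by edgeR, DESeq2 or limma-voom. At an unadjusted p under 0.05 there were 3 lower and 2 higher by edgeR and by limma-voom, and 2 lower and 1 higher by DESeq2, where 8.43% of all genes lay by edgeR. The contractile genes Acta2, Tagln, Myh11 and Cnn1 had 121 ± 41.1, 91.8 ± 30.7, 51.3 ± 5.64 and 3.83 ± 1.28 CPM in ctrl, and 172 ± 27.8, 116 ± 10.4, 53.9 ± 11.2 and 4.65 ± 1.82 CPM in cold (SD, n = 3). The 3 lower genes by edgeR, named after their values were seen, were Mylk, the myosin light chain kinase, at 242 ± 69.7 and 161 ± 17.3 CPM, the pericyte channel gene Kcnj8 at 59.9 ± 4.45 and 41.7 ± 6 CPM, and the pericyte marker Rgs5 at 261 ± 57.0 and 191 ± 23.2 CPM. The 2 higher by edgeR were Acta2 and Des, the latter at 20.6 ± 3.62 and 29.4 ± 4.25 CPM. Of the mature adipocyte markers, Adipoq had 3449 ± 351 and 3039 ± 338 CPM, Plin1 1712 ± 62.3 and 1474 ± 26.9 CPM, Cidec 3685 ± 320 and 3815 ± 54.5 CPM, and Cidea 4.19 ± 2.21 and 4.23 ± 1.13 CPM. Of 19 tested, 5 were higher and 14 lower. By edgeR 1 rose (Pnpla2, the lipase that starts triglyceride breakdown, at 1243 ± 90.0 and 1912 ± 91.8 CPM) and 0 fell. Of all genes 0.655% passed by edgeR. DESeq2 and limma-voom also called Cfd, at 15536 ± 914 CPM in ctrl and 10879 ± 760 CPM in cold. At an unadjusted p under 0.05 there were 3 lower and 3 higher by each of edgeR, DESeq2 and limma-voom (8.43% of all genes by edgeR). By edgeR the lower ones were Cfd, Aqp7 (334 ± 38.7 and 252 ± 44.9 CPM) and Adrb3 (963 ± 282 and 600 ± 135 CPM). The higher ones were Pnpla2, Lep (437 ± 44.4 and 685 ± 184 CPM) and Fabp4 (18345 ± 1764 and 22818 ± 576 CPM). Aqp7, Adrb3, Lep and Fabp4 were named after their values were seen. Pnpla2, Lep and Fabp4 were higher, and Cfd, Aqp7 and Plin1 lower, in each cold mouse than in any control, while Adrb3 overlapped. The sum of this list therefore joins opposite changes.

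Precursor and fibroblast markers summed to 10100 to 12618 CPM in ctrl and 9178 to 11472 CPM in cold over 14 genes, macrophage markers to 1640 to 1896 and 1350 to 2329 CPM over 14, and mesothelial markers to 113 to 308 and 172 to 274 CPM over 12. Their first markers overlapped between the groups, except Lrrn4. Among precursors, Pdgfra had 21.0 ± 6.77 and 28.7 ± 3.6 CPM, Dpp4 16.8 ± 7.79 and 20.9 ± 7.11, Pi16 37.3 ± 19.6 and 32.4 ± 14.4 and Dcn 1293 ± 314 and 1287 ± 308. Most of the precursor and fibroblast sum came from Gsn, named after its values were seen. Gsn had 8368 ± 726 and 7076 ± 592 CPM, lower in each cold mouse than in any control. That sum therefore says little about the other markers. For macrophages, Adgre1 had 28.5 ± 9.19 and 24.7 ± 5.02 CPM, Cd68 43.9 ± 8.99 and 43.6 ± 19.0, Csf1r 93.2 ± 12.4 and 88.1 ± 10.7 and Mrc1 109 ± 15.9 and 125 ± 30.1. For mesothelium, Msln had 24.3 ± 13.7 and 22.5 ± 11.5 CPM, Upk3b 67.5 ± 32.9 and 37.4 ± 28.6, Upk1b 18.9 ± 9.06 and 17.6 ± 11.3 and Lrrn4 14.5 ± 6.8 and 2.89 ± 0.416, the last without overlap and too low to be tested. Of the 8 mesothelial markers tested, the keratins Krt8 and Krt18, which other epithelia share, rose by edgeR, DESeq2 and limma-voom, and 0 fell. Both keratins passed the filter on low counts only through the cold mice, and 0.655% of all genes passed by edgeR. At an unadjusted p under 0.05 there were 3 lower and 2 higher by edgeR (8.43% of all genes), 0 and 2 by DESeq2, and 2 and 3 by limma-voom. The 3 lower by edgeR, named after their values were seen, were Upk3b, Gpm6a (35.3 ± 9.89 and 21.2 ± 12.7 CPM) and Nkain4 (29.2 ± 13.7 and 17.1 ± 5.61 CPM), all with overlap. Krt8 had 4.46 ± 2.99 CPM in ctrl and 35.8 ± 12 CPM in cold, and Krt18 5.19 ± 1.91 and 31.2 ± 11.6 CPM (SD, n = 3). Striated muscle markers summed to 13.9 to 25.4 CPM in ctrl and 9.23 to 19.3 CPM in cold over 10 genes, more from Acta1 (13.0 ± 2.2 and 8.2 ± 4.22 CPM) than from the rest together, with Myh4 at 0 and Myh1 and Ckm at 2 reads each. Epithelial and epididymal markers moved with the groups. Their sum over 14 genes was 10.5 to 20.3 CPM in ctrl and 361, 108 and 102 CPM in cold 7, 12 and 16, with Cldn4 at 1 read in all and Adam28 and Sult1c1 at 0. Epcam had 1.42 ± 2.46 CPM in ctrl and 30.3 ± 16.6 CPM in cold, Cldn7 1.36 ± 1.65 and 17.9 ± 7.56 CPM, and Cdh1 0.899 ± 0.161 and 7.51 ± 5.75 CPM (SD, n = 3). Of these, Epcam and Cldn7, the 2 tested, rose by edgeR and limma-voom, and DESeq2 called Cldn7 only. Epcam and Cldn7 passed the filter on low counts only through the cold mice, so these calls are a description. By edgeR 0.655% of all genes passed. Crisp1, a secreted protein of the epididymis, made up 306 of the 361 CPM in cold 7, against 0 and 2.55 CPM in cold 12 and 16. Without it, a choice made after seeing the values, the sum over 13 genes was 10.5 to 20.3 CPM in ctrl and 55.2, 108 and 99.6 CPM in cold 7, 12 and 16, so cold 7 turned from highest to lowest of the cold mice. Epcam and Cldn7 were also lowest in cold 7 of the cold mice, Epcam at 12.4 CPM against 45.3 and 33.2 CPM in cold 12 and 16. Cav1, Cav2 and Cavin1 were highest in cold 7 of the cold mice. The part of these cells in the levels of the caveola genes was not tested.

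**Figure D4:**
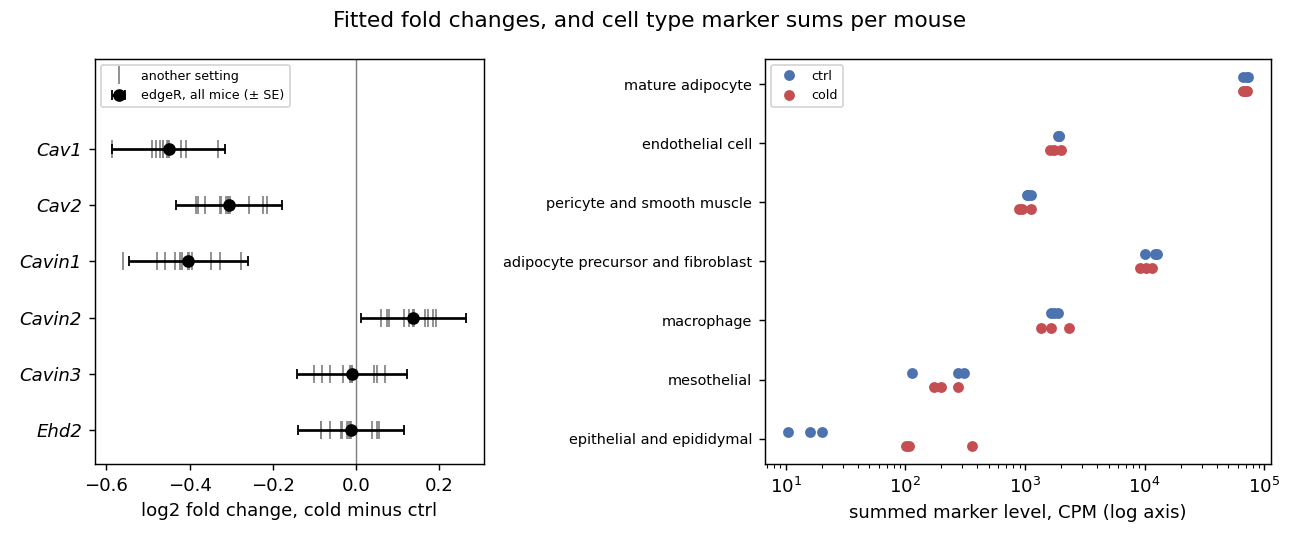
Left, fitted log2 fold change (cold minus ctrl, edgeR, bars 1 SE) of each caveola gene, with grey ticks for the 13 other settings. Right, summed level of each marker list except striated muscle, in CPM (log axis), in the 3 ctrl mice (blue) and 3 cold mice (red). Of these only the epithelial and epididymal sums separate the groups.

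Over the 6 mice, on a TMM-scaled log2 CPM scale, Cav1 and Cavin1 had a Pearson r of 0.94, Cav1 and Cav2 of 0.91, and Cav2 and Cavin1 of 0.72. Cavin2 ran the other way, with r of -0.79 to Cav1, -0.88 to Cav2 and -0.59 to Cavin1. Cavin3 and Ehd2 had r between -0.24 and 0.25 to each of the other caveola genes. The points share their libraries, and Cav1, Cav2 and Cavin1 separate the groups, so these values describe the order of 6 mice and nothing more.

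Among 3281 other genes with a mean of at least 50 CPM, those most like Cav1 over the 6 mice were the kinase gene Stk38 (Pearson r = 0.98, Spearman rho = 1), the chaperone gene Hspa14 (0.98 and 1) and the actin regulator Abi1 (0.97 and 1). Those most like Cavin1 were Timp3, an inhibitor of metalloproteases (0.997 and 1), the phospholipid synthesis gene Cept1 (0.99 and 0.94) and the phosphatase gene Dusp3 (0.99 and 1). For Cav2 they were the nuclear corepressor Nrip1, Tmod3, which caps actin filaments, and Ccdc50, each with r of 0.96 and rho of 0.94. For Cavin2 they were Pisd, Tenm4 and Rpn2 (r of 0.997, 0.996 and 0.97), for Cavin3 Jkamp and the matrix genes Fbn1 and Fbln2 (each 0.96), and for Ehd2 the tubulin gene Tuba1a, Lhfpl2 and Zfp598 (0.98, 0.97 and 0.97). Timp3 had 279 ± 14.7 CPM in ctrl and 223 ± 31.9 CPM in cold (SD, n = 3), and Stk38 62.9 ± 1.2 and 51.2 ± 2.62 CPM. With each mouse left out in turn, r stayed at or above 0.90 for all 18 of these pairs. They are the highest of 3281 values each, so high r values were bound to be found.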

How the data were processed

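For each of the 6 mice there were 2 deposited tables of unnormalized whole-number counts by transcript, 12 in all, each listing transcripts with at least 1 read. The submitters' processing notes name minimap2 and GRCm38. The sources used here do not give the counter, how it placed ambiguous reads, or whether it used strand. The 2 files of a mouse differed by about the sampling noise (chi-square per degree of freedom 1.02 to 1.06 over transcripts with at least 20 reads) and were summed as 1 sample. Of 61729 transcript identifiers, 61538 matched GENCODE M21 without regard to version, and the 191 unmatched held 0.139% to 0.165% of reads. Library totals were 726283 to 1341592 reads.

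Genes and transcripts were tested over the whole tables with edgeR 4.0.16 in R 4.3.3 (quasi-likelihood F test, TMM, filterByExpr with minimum count 10, Benjamini-Hochberg, threshold 0.05), and transcript usage with diffSpliceDGE and the Simes p. The scripts were tested on simulated data. Standard errors come from the F statistic. Alternatives were DESeq2 1.42.0, limma-voom (limma 3.58.1), DESeq2 size factors, other filters, each file alone and each mouse left out. Named are all caveola genes, their transcripts with at least 10 reads, from each pathway list the genes past the threshold or the 4 with the smallest p, the first 4 of marker lists, and the 3 genes most like each caveola gene by Pearson r (prior count 2). The members and lists were chosen with earlier results of these data known. The replicates are separate animals.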

Additional observations from a re-analysis of the deposited data

How the results depend on the processing

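No paired analysis was possible because the ctrl and cold mice share no mouse number. The count of genes called over the whole table was 64, 371 with no filter, 38 with X2 files, and 35 to 199 with each mouse left out, lowest without cold 12 and highest without cold 7, and 106 without ctrl 5. For transcripts it was 47, 260 with no filter, 30 with X1 files, 26 with X2 files and 26 to 162 with each mouse left out. The usage test called 0 genes, and 0 to 1 with each mouse left out. Genes of the pathway lists past the threshold were 0, 1 with no filter and 0 to 1 with each mouse left out; the gene was Slc27a1, with no filter and without cold 16. Cav1 passed with no filter (log2 fold change -0.47) and without cold 7 (-0.59), and in the other 11 settings it did not. Over the 13 settings the log2 fold change was -0.59 to -0.33 for Cav1, -0.38 to -0.21 for Cav2, -0.56 to -0.28 for Cavin1 and 0.06 to 0.19 for Cavin2. For Cavin3 it was -0.10 to 0.07 and for Ehd2 -0.09 to 0.06, so their sign was not stable. The cause of these shifts was not tested. With 3 mice a group and 726283 to 1341592 reads, transcripts with few reads were not testable: 11 of the 19 caveola transcripts did not pass the filter.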

Other observations

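Within 500000 bases of Cav1 on either side, a window chosen after the values were seen, 4 protein-coding genes other than Cav1 and Cav2 were tested (Tes, Met, Capza2 and St7), and 0 of these passed the threshold by edgeR. Tes, an adhesion protein, had 17.2 ± 4.31 CPM in ctrl and 12.9 ± 1.23 CPM in cold (SD, n = 3), without overlap, and the capping protein gene Capza2 165 ± 16.2 and 138 ± 26.5 CPM, with overlap. Met, the receptor of hepatocyte growth factor, had 25.6 ± 3.41 and 31.6 ± 7.15 CPM, and St7 9.21 ± 2.81 and 14.2 ± 2.88 CPM, both with overlap. The non-coding gene D830026I12Rik, on the other side of Cav2, had 53 reads in all, too few to be tested, with 10.2 ± 1.49 CPM in ctrl and 6.84 ± 1.26 CPM in cold, without overlap. Dnm3, a dynamin of the partner list with 30 reads in all and too few to be tested, was singled out after its values were seen and had 2.49 ± 1.52 and 8.40 ± 1.76 CPM, without overlap.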
